A study of Mus musculus with 4 samples.

Results

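Expression of 46 genes of the lysosome was examined in epididymal adipose tissue: 16 subunits and accessory proteins of the vacuolar proton pump (V-ATPase), 24 lysosomal hydrolases and activators, and 6 genes for lysosomal membrane proteins and the regulator Tfeb. The genes were chosen by symbol, from the list of 46 names, out of the 24421 gene symbols in the deposited matrices. RNA came from wild-type male C57BL/6J mice, the genotype being written WT in the labels. WC1 (weight-cycling) mice were 8 weeks old when they began high-fat diet (HFD), which they ate for 8 weeks, followed by 2 weeks of standard diet and 6 more weeks of HFD. Ctrl mice began HFD at 10 weeks of age and ate it for 14 weeks, so that all mice were 24 weeks old at the end. Each group had 2 libraries, and how many mice gave each one is not given in the labels, so p-values measure only the spread between these libraries. The libraries held between 61465029 and 90965297 reads, and the lowest count of any of the 46 genes in a library was 2516 reads.

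The lysosome degrades proteins, glycans and lipids in an acid lumen. The V-ATPase sets its acidity: the cytosolic V1 sector hydrolyses ATP, and the membrane V0 sector moves protons into the lumen. Hydrolases reach the lysosome mainly through the mannose 6-phosphate route, and a coat of membrane glycoproteins, such as LAMP1 and LAMP2, lines the limiting membrane. TFEB and its relatives TFE3, MITF and TFEC are transcription factors that bind E-box letters in the promoters of many lysosomal genes. In obese adipose tissue, macrophages around dying adipocytes take up lipid and are rich in lysosomes.

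As a check of the tissue label, the 12 adipocyte markers were all detected, and their summed level ran from 12351 to 14489 CPM in Ctrl and from 23520 to 31591 CPM in WC1. CPM is the deposited read-proportional value described under the processing. The epididymis markers Crisp1, Lcn5 and Spink8 were listed at 0 in every library, and Defb20 was at 0 in 3 of them and at 0.115 CPM in WC1 1.

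Transcripts of most proton pump genes were less abundant in the WC1 libraries than in Ctrl. In bulk tissue, fewer cells of a type and less RNA per cell cannot be told apart. All 46 genes passed the filter on low values (at least 0.5 CPM in at least 2 libraries) and were tested among 14106 genes with limma on log2(CPM + 1), WC1 minus Ctrl, at an adjusted p under 0.05. Of the 46, 11 fell in WC1 and 2 rose, while 7.71% of all genes tested fell and 10.2% rose. Both WC1 libraries lay below both Ctrl libraries for 40 of the 46 genes, as they did for 36.6% of all genes tested. Both lay above for 4, against 32.7% of all genes tested, and the groups overlapped for 2. At an unadjusted p under 0.05, 32 were lower in WC1, against 18.9% of all genes tested. The median log2 fold change was -0.43 over the 46 genes and -0.02 over all genes tested.

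By class, the median log2 fold change was -0.59 for the pump, with 10 of 16 called lower. It was -0.34 for the hydrolases and activators, with limma calling none of 24 lower and 2 higher. Of these 24, 13 were lower at an unadjusted p under 0.05. By edgeR 0 were called lower and by DESeq2 11, beside 1007 and 1736 of all 14106 genes tested. The median was -0.43 for the membrane proteins and Tfeb, with 1 of 6 called lower. TPM, in which reads are corrected for transcript length and scaled to an equal sum in each library, moved the whole table upward in WC1 by 0.12 on the log2 scale at the all-gene median. With TPM 4.13% of all genes were called lower and 14.6% higher, and 8 of the 46 genes were called lower and 2 higher. Taken relative to the median of all genes tested, the class medians were -0.57, -0.32 and -0.41 with CPM and -0.55, -0.30 and -0.39 with TPM. Without Ctrl 1 or without Ctrl 2 the limma calls of the 46 genes did not hold. The spread within groups came from the WC1 libraries alone in those fits. The median log2 fold change of the 46 was then -0.39 and -0.46, beside -0.43 with all libraries. Few genes of any kind were called in those fits: of all 14106 genes, 4 were lower and 2 higher without Ctrl 1, and 6 and 6 without Ctrl 2, with 2621 and 3115 at an unadjusted p under 0.05. Without WC1 1, 37 of the 46 were called lower, beside 2748 of all genes, and without WC1 2, 17, beside 1231 of all genes. With no filter on low values, 4 of the 46 were called lower, all of the pump (Atp6v0b, Atp6v0e, Atp6v1f and Atp6v1g1), and the calls of Tcirg1, Atp6v0c, Atp6v1d, Atp6v1h, Atp6ap1, Atp6ap2 and Lamp2 ended.

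**Figure D1:**
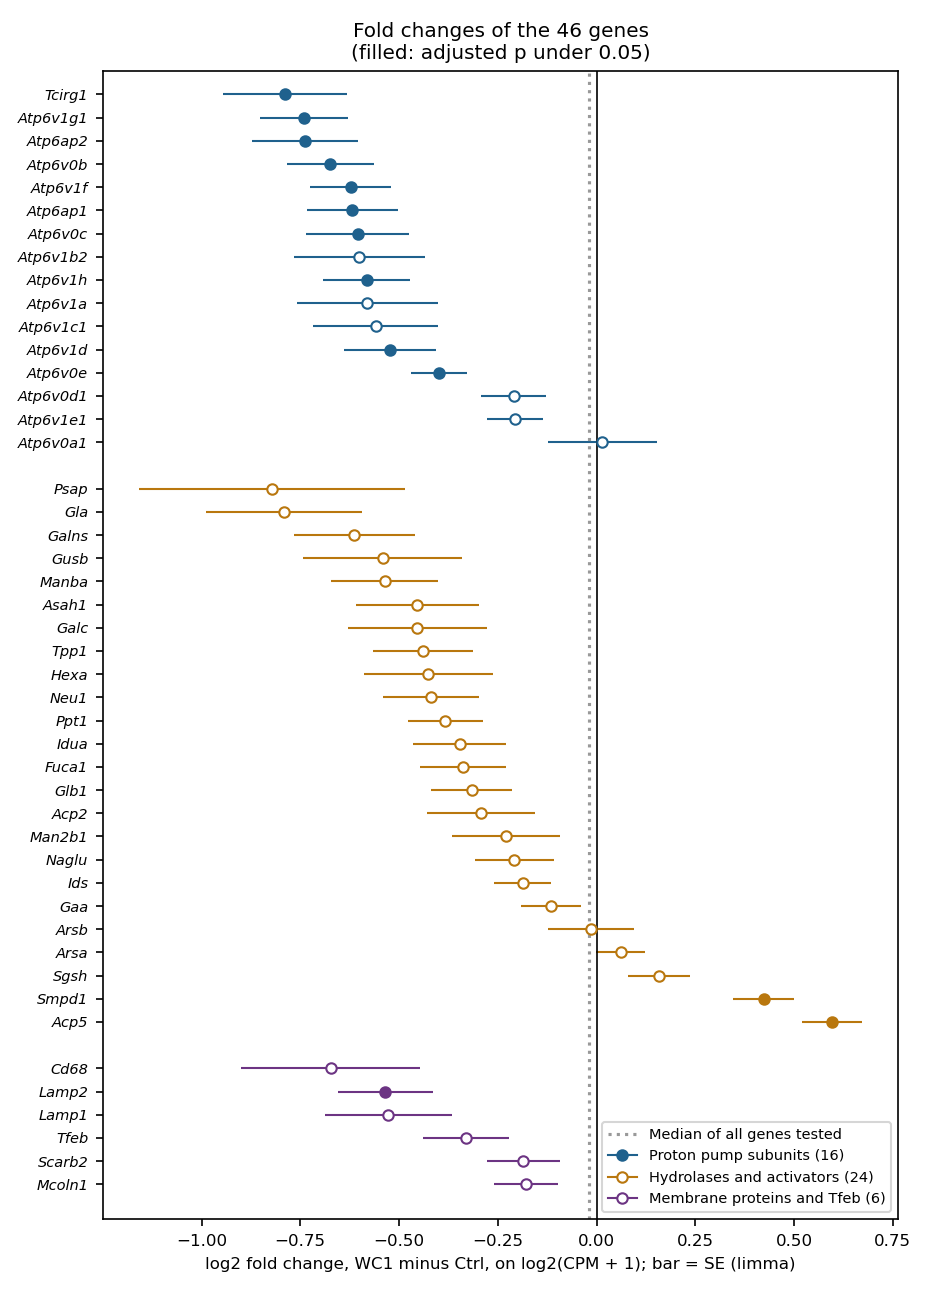
Log2 fold changes of the 46 genes, WC1 minus Ctrl on log2(CPM + 1), with standard errors from limma (2 libraries per group), in 3 classes ordered by fold. Filled points had an adjusted p under 0.05. Most points lie left of 0, Acp5 and Smpd1 are the only filled points to the right, and Atp6v0a1 and Arsb lie at 0.

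Markers of several cell types also differed between the groups, in both directions. Of the 16 macrophage markers 9 fell and 0 rose, and their median log2 fold change was -0.82. In DESeq2 14 were lower, and 14 were lower at an unadjusted p under 0.05. Their summed CPM was 14816 and 13571 in Ctrl and 8787 and 6161 in WC1, and no marker of the list was at 0. The median deviation of the macrophage markers was -0.58 in WC1 1 and -1.05 in WC1 2. Of the 8 fibroblast markers 3 fell, and of the 12 adipocyte markers 9 and of the 6 endothelial markers 5 rose. Of 4 B cell markers 1 rose (2 higher at an unadjusted p under 0.05, DESeq2 3), and their summed CPM was 4.31 and 2.59 in Ctrl and 7.24 and 26.4 in WC1, with WC1 2 the highest. Of 5 mesothelial markers, summing to 107 and 75.6 CPM in Ctrl and 52.4 and 148 CPM in WC1, limma and DESeq2 called 0, with 0 at an unadjusted p under 0.05, and of 6 T and NK cell markers both called 0, with 1 at an unadjusted p under 0.05. The part of the macrophage markers in the pump and hydrolase values was not tested.

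**Figure D2:**
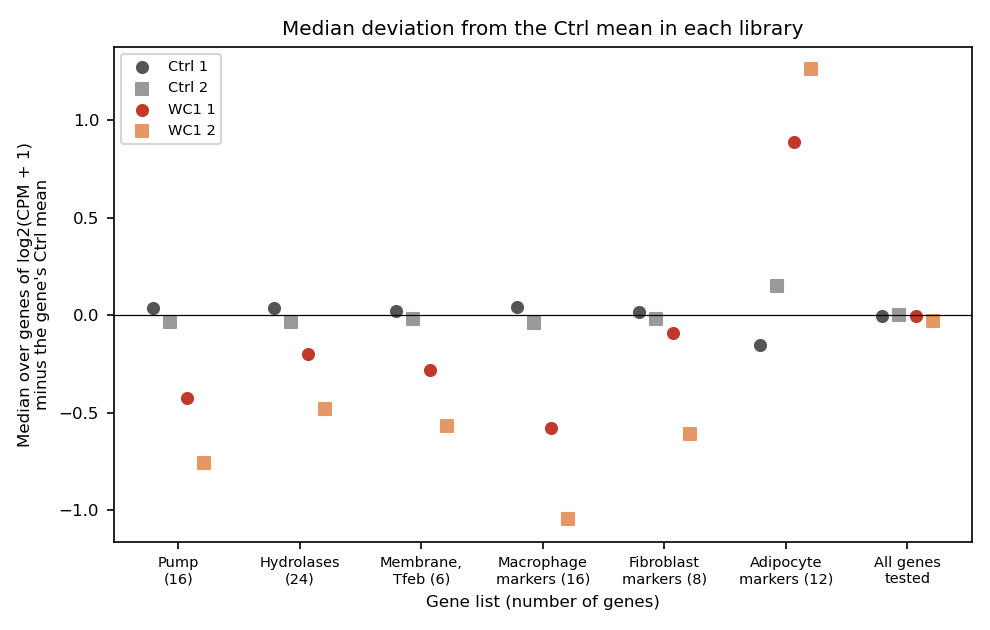
Median over the genes of each list of log2(CPM + 1) minus the gene's own Ctrl mean, one point per library, for the 3 lysosomal classes, for marker lists of macrophages, fibroblasts and adipocytes, and for all genes tested. In WC1 2 the pump lies at -0.76 and the macrophage markers at -1.05, all genes stay near 0, and adipocyte markers rise above 0.

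In the V0 sector, 4 of 6 genes fell, beside 7.71% of all genes tested. Tcirg1 (chromosome 19, 3896050-3907133 in GRCm38.p6) encodes the a3 isoform of the large a subunit, which is prominent in osteoclasts and is also made by macrophages. Its CPM was 663 and 614 in Ctrl and 426 and 319 in WC1 (log2 fold change -0.79 ± 0.16 SE, adjusted p = 0.035 by limma). The ring subunits that carry the protons fell too: Atp6v0c, at 574 and 547 CPM in Ctrl, was at 411 and 330 in WC1 (-0.60 ± 0.13, adjusted p = 0.040 by limma). Atp6v0b was at 355 and 331 CPM in Ctrl against 234 and 196 in WC1 (-0.67 ± 0.11, adjusted p = 0.025 by limma). In each of these genes both WC1 libraries lay under both Ctrl libraries, with WC1 2 the lowest. Atp6v0e, a small membrane subunit, went from 217 and 212 CPM in Ctrl to 167 and 158 CPM in WC1 (-0.40 ± 0.07, adjusted p = 0.028 by limma). Atp6v0d1, which joins the ring to the central stalk, was at 217 and 208 CPM in Ctrl and 193 and 175 in WC1, and its difference of -0.21 ± 0.08 did not pass (adjusted p = 0.13 by limma). With TPM, Atp6v0c and Atp6v0e no longer passed (adjusted p = 0.059 and 0.067 by limma).

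Atp6v0a1 lay against its class. It encodes the a1 isoform of the same large subunit, which is widely expressed (chromosome 11, 101009422-101063719). It was at 686 and 751 CPM in Ctrl against 803 and 654 CPM in WC1. The groups overlapped, and the difference of 0.01 ± 0.14 log2 was not called (adjusted p = 0.95 by limma). Its difference turned negative without Ctrl 1 or without WC1 1.

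Isoform levels were compared per length, as each isoform's share of the summed TPM of its family. Tcirg1 held 56.3% and 52.2% of the a family in Ctrl, and 41.6% and 39.3% in WC1 (54.2% ± 2.9 against 40.5% ± 1.6, SD, n = 2 each). Atp6v0a1 held 39.8% and 43.7% in Ctrl against 53.6% and 54.9% in WC1. The ratio of Tcirg1 to Atp6v0a1 TPM was 1.42 and 1.20 in Ctrl against 0.776 and 0.717 in WC1, so Tcirg1 was the higher isoform in both Ctrl libraries and the lower one in both WC1 libraries. The groups did not overlap, but 2 against 2 libraries cannot give an exact two-sided permutation p below 0.333, and this was left untested. The difference in the Tcirg1 share was between -15.8 and -11.7 percentage points whichever library was left out. Atp6v0a2 made up between 3.81% and 5.60% and Atp6v0a4 at most 0.196%.

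**Figure D3:**
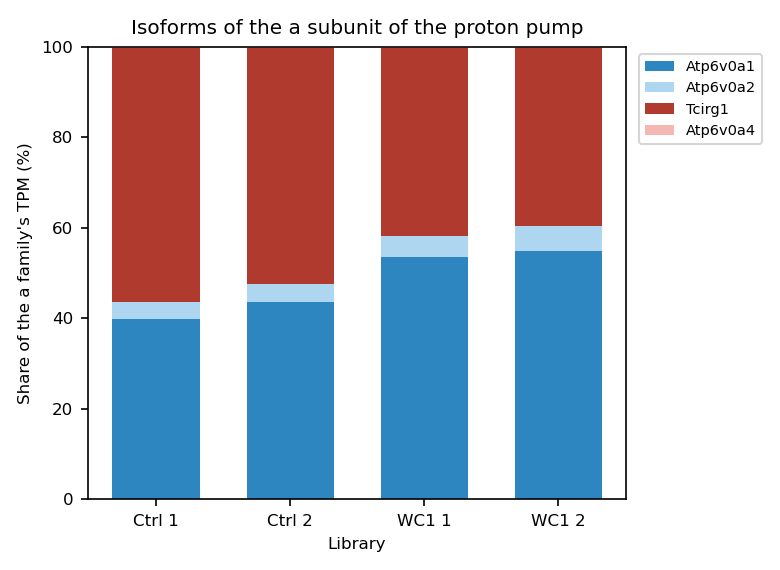
Stacked bars of the share of summed TPM held by the 4 isoforms of the a subunit in each of the 4 libraries (y axis, percent). Tcirg1 holds 56.3% and 52.2% in Ctrl and 41.6% and 39.3% in WC1, and Atp6v0a1 is the larger share in both WC1 libraries.

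Other families with 2 or more genes gave shares as follows. Atp6v0e2, the second e isoform, rose from 11.4 and 12.4 CPM in Ctrl to 25.3 and 37.9 CPM in WC1 (1.31 ± 0.20, adjusted p = 0.023 by limma), and its share of the e family's TPM went from 2.23% and 2.48% to 6.16% and 9.45%. Atp6v0d2, the d isoform known from osteoclasts and macrophages, held 65.5% and 66.6% of the d family in Ctrl and 67.2% and 57.7% in WC1. Its mean share was lower by 3.63 points in WC1, and higher by 1.14 points once WC1 2 was left out. Atp6v1b1, Atp6v1e2 and Atp6v1g3 were listed at 0 in every library, where 3 reads would equal between 0.0345 and 0.0492 CPM, and Atp6v1c1 and Atp6v1g1 held at least 98.9% and 95.4% of their families.

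In the V1 sector, 4 of 8 genes fell, beside 7.71% of all genes tested. All 8 were lower in both WC1 libraries than in either Ctrl library, as were 36.6% of all genes tested. Atp6v1g1, a subunit of the peripheral stalks, was at 200 and 188 CPM in Ctrl and 127 and 105 CPM in WC1 (-0.74 ± 0.11, adjusted p = 0.022 by limma). Atp6v1f, of the central stalk, was at 122 and 121 CPM in Ctrl and 85.8 and 71.6 CPM in WC1 (-0.62 ± 0.10, adjusted p = 0.025 by limma). For both genes the gap between groups exceeded the gap within either group. Atp6v1h, a regulatory subunit, was at 161 and 140 CPM in Ctrl against 107 and 93.3 CPM in WC1 (-0.58 ± 0.11, adjusted p = 0.031 by limma). Atp6v1d, also of the central stalk, was at 139 and 136 CPM in Ctrl and 106 and 85.5 CPM in WC1 (-0.52 ± 0.12, adjusted p = 0.043 by limma). With TPM it no longer passed (adjusted p = 0.068 by limma).

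The 2 subunits that form the ATP-hydrolysing head did not pass by limma or edgeR. Both passed by DESeq2 (adjusted p = 0.0098 for Atp6v1a and 0.0026 for Atp6v1b2). Atp6v1a was at 572 and 526 CPM in Ctrl and 435 and 309 CPM in WC1 (-0.58 ± 0.18, adjusted p = 0.083 by limma). Atp6v1b2 was at 867 and 768 CPM in Ctrl and 619 and 467 CPM in WC1 (-0.60 ± 0.17, adjusted p = 0.066 by limma). Their fold changes lay within the range of the pump genes that passed by limma (-0.79 to -0.40), and WC1 2 was well below WC1 1 in both. Atp6v1c1 (-0.56 ± 0.16, adjusted p = 0.070 by limma) and Atp6v1e1 (-0.21 ± 0.07, adjusted p = 0.10 by limma) also did not pass by limma. By DESeq2 Atp6v1c1 passed (adjusted p = 0.0078) and Atp6v1e1 did not (adjusted p = 0.13). Atp6v1e1 was at 193 and 192 CPM in WC1 against 228 and 217 in Ctrl.

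The accessory proteins both fell. Atp6ap1, which takes part in assembly of the V0 sector, was at 504 and 480 CPM in Ctrl and 350 and 293 CPM in WC1 (-0.62 ± 0.11, adjusted p = 0.030 by limma). Atp6ap2, the prorenin receptor, was at 233 and 224 CPM in Ctrl and 155 and 120 CPM in WC1 (-0.74 ± 0.13, adjusted p = 0.029 by limma). The pump as a whole, all 16 genes summed, took 0.635% and 0.609% of the TPM in Ctrl, and 0.514% and 0.439% in WC1. Per length, the mean level of its genes over the 4 libraries ran from 127 TPM for Atp6v1h to 808 TPM for Atp6v0c.

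**Figure D4:**
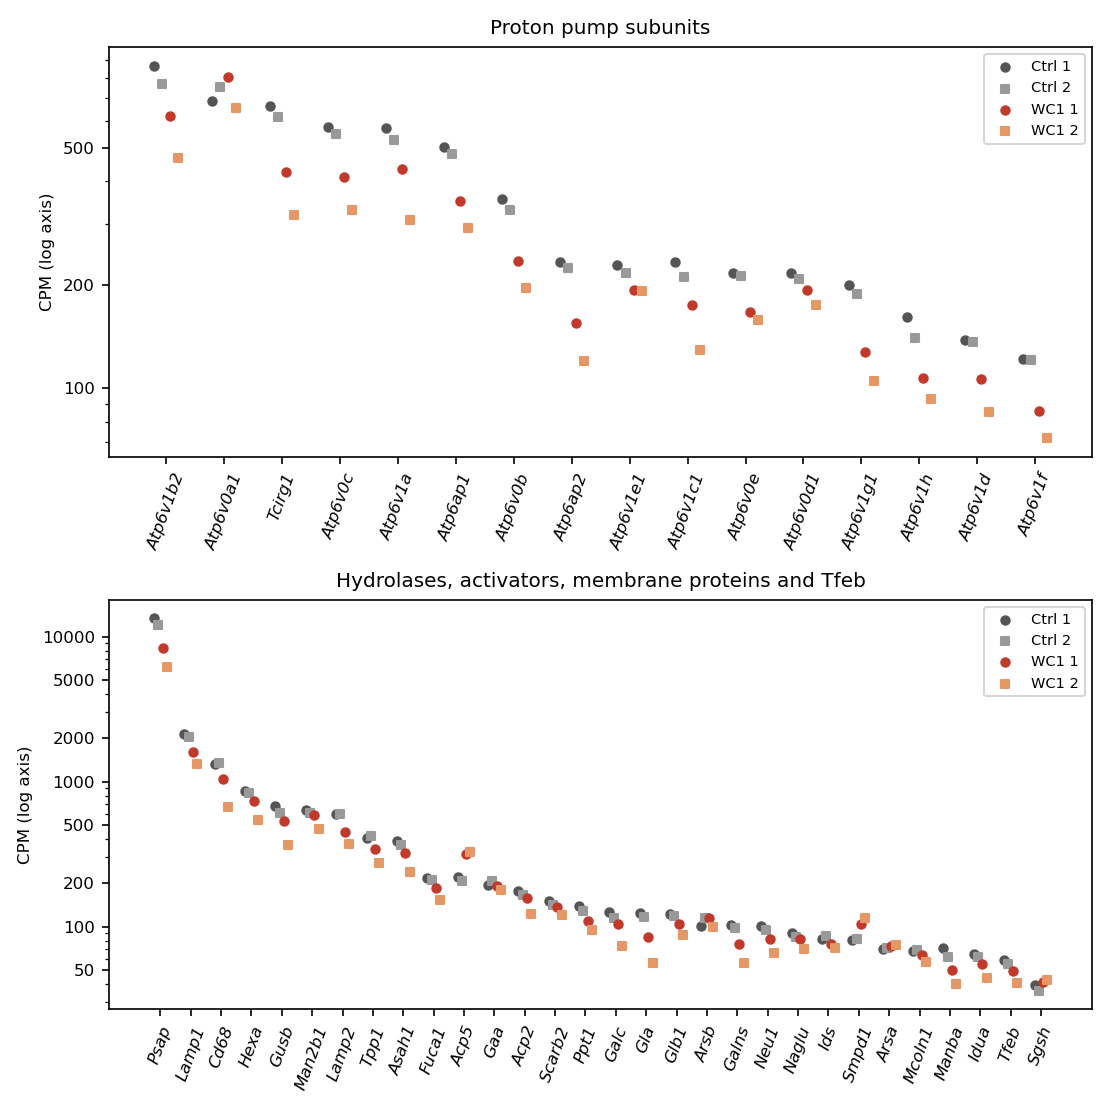
CPM of each gene in the 4 libraries on a log axis, with the pump subunits above and the other 30 genes below, each ordered by the Ctrl mean. Grey points are Ctrl 1 and Ctrl 2, red and orange points are WC1 1 and WC1 2. In the pump, the WC1 points lie below the Ctrl points except for Atp6v0a1, and in the lower panel Acp5 and Smpd1 have WC1 above Ctrl.

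Among the hydrolases 2 genes rose, against the direction of their class. Acp5 (chromosome 9, 22126727-22135746) encodes tartrate-resistant acid phosphatase, an enzyme used as a marker of osteoclasts and also made by macrophages. It was at 219 and 207 CPM in Ctrl and 316 and 329 CPM in WC1 (0.60 ± 0.08, adjusted p = 0.018 by limma). Smpd1 (chromosome 7, 105554360-105558389), acid sphingomyelinase, was at 80.9 and 82.7 CPM in Ctrl and 105 and 115 CPM in WC1 (0.42 ± 0.08, adjusted p = 0.029 by limma). For both genes the WC1 libraries lay above the Ctrl libraries, and the gap within each group was smaller than the gap between groups. Each was called in 11 of 13 alternative analyses, the exceptions being those without Ctrl 1 or without Ctrl 2. Of the 7 osteoclast markers 5 were tested, of which 1 fell and 0 rose by limma (2 lower at an unadjusted p under 0.05, DESeq2 2 lower and 0 higher). Ctsk was the gene that fell, from 740 and 694 CPM in Ctrl to 405 and 237 CPM in WC1 (-1.21, adjusted p = 0.040 by limma, and 0.0503 with TPM), Calcr was listed at 0 in every library, and the summed level of the list was 1470 and 1417 CPM in Ctrl and 1100 and 664 CPM in WC1.

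Sgsh, which cuts sulfate from heparan sulfate, and Arsa, which removes sulfate from sulfatide, were also above Ctrl in both WC1 libraries, at 41.2 and 43.2 CPM against 39.3 and 36.1 for Sgsh and 73.4 and 74.2 CPM against 70.6 and 70.8 for Arsa. Their differences of 0.16 ± 0.08 and 0.06 ± 0.06 did not pass (adjusted p = 0.21 and 0.51 by limma). Arsb, the sulfatase of dermatan sulfate, overlapped between groups (101 and 115 CPM in Ctrl, 115 and 98.9 CPM in WC1).

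The other 19 hydrolases and activators were lower in both WC1 libraries than in either Ctrl library, as were 36.6% of all genes tested. Of these 19, limma called none, edgeR 0 and DESeq2 11, while DESeq2 called 1736 of all 14106 genes lower. Psap, the precursor of the saposins that help glycolipid hydrolases, had the highest TPM of the class (7703 on average). It was at 13382 and 12019 CPM in Ctrl against 8291 and 6215 CPM in WC1, a difference of -0.82 ± 0.34 (adjusted p = 0.15 by limma, 0.058 by edgeR and 1.2e-05 by DESeq2). The 2 WC1 libraries of Psap were farther apart than the 2 Ctrl libraries. Next in size was Gla, alpha-galactosidase, at 125 and 116 CPM in Ctrl and 84.9 and 56.2 in WC1 (-0.79 ± 0.20, adjusted p = 0.054). Galns, which removes sulfate from keratan sulfate, was at -0.61 (adjusted p = 0.053), Manba, beta-mannosidase, at -0.54 (adjusted p = 0.055), and Ppt1, palmitoyl-protein thioesterase, at -0.38 (adjusted p = 0.054, all by limma). Gla, Galns, Manba and Ppt1 thus lay just above the threshold. Gusb (beta-glucuronidase), the acid ceramidase gene Asah1, the galactosylceramidase gene Galc, the peptidase gene Tpp1, the hexosaminidase gene Hexa, and the sialidase gene Neu1 lay between -0.54 and -0.42. Idua, Fuca1, Glb1, Acp2, Man2b1, Naglu, Ids and Gaa, which degrade glycosaminoglycans, glycoproteins, gangliosides, phosphate esters and glycogen, lay between -0.35 and -0.12. By substrate, the median log2 fold change was -0.44 for the 8 glycolipid genes, -0.34 for the 5 glycoprotein and glycogen genes, -0.21 for the 7 glycosaminoglycan genes and -0.34 for the other 4, beside -0.02 for all genes tested. Without WC1 2 these medians were -0.21, -0.20, -0.15 and -0.19, so their order was the same but they lay closer together. With TPM they were -0.30, -0.20, -0.07 and -0.20, beside 0.10 for all genes tested. All 24 summed took 1.36% and 1.26% of the TPM in Ctrl, against 1.03% and 0.826% in WC1. Without Psap, the other 23 took 0.369% and 0.357% of the TPM in Ctrl against 0.363% and 0.306% in WC1, and the groups overlapped. In CPM these 23 summed to 5096 and 4900 in Ctrl against 4531 and 3671 in WC1, and the groups did not overlap.

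Of the membrane proteins Lamp2 fell, from 597 and 594 CPM in Ctrl to 453 and 373 CPM in WC1 (-0.53 ± 0.12, adjusted p = 0.044 by limma). Lamp1, the other main membrane glycoprotein, was at 2139 and 2035 CPM in Ctrl and 1597 and 1312 CPM in WC1 (-0.53 ± 0.16, adjusted p = 0.082 by limma). Cd68, a LAMP family member found in macrophage lysosomes, was at 1320 and 1347 CPM in Ctrl and 1040 and 672 CPM in WC1 (-0.67 ± 0.23, adjusted p = 0.0998 by limma), with WC1 2 far below WC1 1. All 6 genes of this class were lower in both WC1 libraries than in either Ctrl library, as were 36.6% of all genes tested. Scarb2, an integral membrane protein of the lysosome, was at -0.19 ± 0.09 and Mcoln1, a calcium channel, at -0.18 ± 0.08 (adjusted p = 0.21 and 0.18 by limma). The regulator Tfeb was at 58.5 and 55.0 CPM in Ctrl and 49.3 and 40.8 CPM in WC1 (-0.33 ± 0.11, adjusted p = 0.095 by limma).

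The libraries of WC1 were further apart than those of Ctrl. The SD of the 2 libraries had a median of 3.97% of the mean over the 46 genes in Ctrl and 13.8% in WC1, and the highest value was 10.1% in Ctrl and 30.4% in WC1. WC1 2 was lower than WC1 1 in 42 of the 46 genes and in all 16 pump genes, beside 7726 of all 14106 genes tested. Ctrl 2 was likewise lower than Ctrl 1 in 37 of the 46 and in 15 of the 16 pump genes, beside 6877 of all genes tested. The median deviation of the pump from the Ctrl mean was -0.42 in WC1 1 and -0.76 in WC1 2 on log2(CPM + 1). For the hydrolases it was -0.20 and -0.48, and for the membrane class -0.28 and -0.57.

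The other genes of the pathway were taken from lists of 69 further genes, of which 66 were tested. With CPM, 15 of these fell and 5 rose, while 7.71% of all genes tested fell and 10.2% rose, and the median log2 fold change was -0.26. With TPM, 4 fell and 11 rose, while 4.13% of all genes tested fell and 14.6% rose. The balance of the calls thus depended on the scaling here as it did over all genes tested. The fold changes that follow are from CPM. Among 14 tested pump isoforms and assembly factors, Ccdc115, an assembly factor, fell (-0.39) and Atp6v0e2 rose (1.31). Among 17 other hydrolases and cofactors, those that fell included Sumf1, which activates sulfatases (-0.42), and Nagpa, which exposes the mannose 6-phosphate tag (-0.87). With TPM 0 of these 17 fell and 4 rose, beside 4.13% and 14.6% of all genes tested. Among 19 other membrane proteins, Slc11a1 (-0.96), Cd63 (-0.90), Laptm5 (-0.79) and Ctns (-0.42) fell, and Mfsd8 (0.72), Laptm4b (0.64) and Sort1 (0.40) rose. Among 16 regulators, Tfec fell the most (-1.81), followed by Fnip2 (-0.83), Lamtor3 (-0.49), Flcn (-0.35), Fnip1 (-0.34) and Lamtor2 (-0.30), and Mtor rose (0.48), all by limma. Of the named genes that fell with CPM, those that also fell with TPM were Slc11a1, Tfec, Fnip2 and Lamtor3, and the others did not pass. The 5 genes that rose with CPM also rose with TPM.

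The promoters of the 46 genes were searched for TCACGTG, read on both strands (its reverse complement is CACGTGA), the E-box letters bound by TFEB and its relatives. Promoter windows ran from 250 bases before to 50 bases after each gene's start, from RefSeq on GRCm38.p6, and were matched for 40 of the 46 genes. The genes Asah1, Atp6v1b2, Atp6v1c1, Atp6v1g1, Atp6v1h and Galns had none in the table. The motif was in 12 of these 40 genes (30.0%), and in 4.29% of all genes of the table. Of the 52 other pathway genes with a window, 12 held it (23.1%). These shares are a description with no test. It was in 4 of 12 pump genes, 6 of 22 hydrolases and 2 of 6 of the membrane class. Printed here are the stretches of all 6 genes whose motif lay upstream of the start used by its window and outside annotated exons, with the motif in capitals, 5′ to 3′ on the gene's strand. They lie at chr4:117887335-117887386 (minus strand) for Atp6v0b, chr16:44139364-44139411 (minus strand) for Atp6v1a, chr8:13159079-13159155 (plus strand) for Lamp1, chr9:114401009-114401055 (plus strand) for Glb1, chr11:119267802-119267848 (plus strand) for Gaa and chr15:89477430-89477461 (minus strand) for Arsa. The stretch of Atp6v1a lies inside the gene as annotated from its outermost start, at 44139702, and upstream of the start its window uses.
Atp6v0b: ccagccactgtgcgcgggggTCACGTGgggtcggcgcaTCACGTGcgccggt
Atp6v1a: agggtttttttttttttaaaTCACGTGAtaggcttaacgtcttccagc
Lamp1: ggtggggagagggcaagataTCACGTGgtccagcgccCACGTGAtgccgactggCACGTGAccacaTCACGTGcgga
Glb1: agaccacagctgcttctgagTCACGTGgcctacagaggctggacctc
Gaa: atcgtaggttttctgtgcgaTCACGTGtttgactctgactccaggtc
Arsa: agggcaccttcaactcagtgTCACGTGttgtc

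Atp6v0b held 2 copies of the letters and Lamp1 4, and the single copy in Atp6v1a reads the same on both strands. The 12 genes with the motif had a median log2 fold change of -0.26, with 2 called lower, Atp6v0b and Atp6v0e. The 28 without it had a median of -0.42, with 7 called lower and 2 higher, Acp5 and Smpd1. The windows of Tcirg1 and Atp6v0a1 did not hold the letters, which says nothing about the factors themselves.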

How the data were processed

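RNA-seq had been made from epididymal adipose tissue of 4 mouse libraries, 2 Ctrl and 2 WC1. The authors deposited 2 gene-by-library matrices of the same 24421 symbols. In the first, called CPM by its name, the authors deposited a signal in proportion to reads, scaled per library. The sum of a column was from 97.6% to 105% of that of plain CPM, and 100% of the values of every library were whole reads within a tolerance of 0.01 read. The second holds the authors' deposited TPM. The submitters' processing notes name fastp, HISAT2, StringTie and mm10. Their order, versions and the annotation: not given in the sources used here. The labels name a directional library kit, and whether strand was used in counting is not given. Genes sharing reads with close copies are uncertain.

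The 46 genes, the pathway and marker lists and the tests were chosen with earlier results of these data known. The 14106 genes that reached 0.5 CPM in 2 or more libraries were fitted by limma 3.58.1 in R 4.3.3 on log2(CPM + 1), with group alone, a trend in the variance and Benjamini-Hochberg adjustment over all genes tested (threshold 0.05). This scale understates changes of low genes. Fold changes are WC1 minus Ctrl with SE; errors of means are SD of 2 libraries. Genes named are the 46, those of the pathway lists under the threshold, and markers a result turns on; some pathway genes are not reported here. Alternatives were other pseudocounts (0.25, 5), filters, TPM, median-of-ratios scaling, edgeR 4.0.16 and DESeq2 1.42.0 on the recovered reads, a replicate block and leaving out each library. edgeR called 1007 genes lower and 1476 higher. The scripts were tested on simulated data.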

Additional observations from a re-analysis of the deposited data

How the results depend on the processing

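Of 598 values of single genes under the 13 alternatives, 493 kept their sign and their side of the threshold, 60 gained a call, 36 lost one and 9 changed sign. The sign changes were in Gaa (0.0237 with TPM), Arsb (0.13 with TPM, 0.00516 with median-of-ratios scaling, 0.00556 with edgeR and 0.00532 with DESeq2; -0.12 to 0.10 leaving out single libraries) and Atp6v0a1 (-0.13 to 0.16 leaving out single libraries). The WC1 minus Ctrl difference in the share of Atp6v0d2 in its family ranged from -8.40 to 1.14 percentage points leaving out single libraries. For Atp6v0e2 this difference was 10.98 points with shares of CPM, beside 5.44 points with shares of TPM. Counts of genes called lower, 11 in the main analysis, were 4 without a filter, 27 with DESeq2 and 22 with the replicate block, and ranged from 0 to 37 leaving out single libraries; genes called higher ranged from 0 to 2. For the pump they were 4 without a filter and 0 to 14 leaving out single libraries. For the hydrolases they were 1 with median-of-ratios scaling, 11 with DESeq2, 7 with the replicate block and 0 to 17. For the membrane class they were 0 without a filter, 3 with DESeq2, 2 with the replicate block and 0 to 6. Class medians with TPM were -0.45, -0.20 and -0.29, and ranged over single libraries left out from -0.76 to -0.42, from -0.48 to -0.20 and from -0.57 to -0.28. The cause of these changes was not tested.

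Over all genes, 1088 were called lower and 1443 higher (57.0% higher), with TPM 583 and 2054 (77.9% higher), without a filter 532 and 788, with DESeq2 1736 and 2125, and with the block 1497 and 1769. The labels give both groups the numbers 1 and 2 without saying that they pair libraries. The difference of replicate 1 and 2 correlated between groups with r = 0.19 over 14106 genes, and 2 pairs are too few to decide, so the block is given only here. Leaving out each library for the subunit shares was chosen after seeing the data. A library left alone in its group was assumed to vary like the other group. The 46 genes had at least 2516 reads in every library, and some markers of low level rest on few reads.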
